A study of Mus musculus with 4 samples.

Results

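The Hsp and DnaJ chaperone genes were examined on 4 one-color whole mouse genome arrays, which hold 143 probes for 75 genes whose symbol begins with Hsp, Dnaja, Dnajb or Dnajc, out of 27376 named genes. The members comprise 30 Hsp genes, 4 Dnaja genes, 13 Dnajb genes and 28 Dnajc genes. They were chosen by symbol alone, and 3 of them match by name only, namely Hspg2 (the matrix proteoglycan perlecan), Hspbap1 and Hspb11, which leaves 72 chaperones and co-chaperones. The samples were sorted CD8αβ+ T cells of wild-type male C57BL/6 mice, 8 to 12 weeks of age per the labels, with 2 samples of CD8αβ+ intraepithelial lymphocytes (IELs) of the small intestine and 2 samples of CD8αβ+ splenic lymphocytes (SPLs). Cells of several mice were pooled for each sample, no mouse carried a transgene or a deletion, and no cells were stimulated in culture. The methods describe warm incubations with rotation to release IELs from the gut, whereas spleens were kept cold before they were dissociated, so that organ and isolation procedure cannot be told apart.

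Heat shock proteins are molecular chaperones that bind unfolded proteins. HSP70 proteins hold and release clients in a cycle driven by ATP, J-domain proteins encoded by the Dnaj genes deliver clients and stimulate that cycle, HSP110 proteins exchange the nucleotide, and HSP90 acts late on signaling proteins such as the kinase Lck of T cells. Some of these genes are switched on by heat shock factor when proteins unfold in the cytosol, some are switched on by the unfolded protein response when they unfold in the endoplasmic reticulum (ER), and others are expressed constantly.

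The sequences shown here lie upstream of stress-inducible and ER genes, where heat shock factor and the ER stress factors can act. Binding of these factors was not measured, and no array result below depends on these sequences. RefSeq promoters (GRCm38.p6, 250 bases before to 50 bases after the start) were held for 61 of the 75 genes. The heat shock element was searched as 2 facing or opposed units, GAANNTTC or TTCNNGAA, and as 3 alternating units, GAANNTTCNNGAA or TTCNNGAANNTTC, which contain the 2-unit form. The ER stress element was searched as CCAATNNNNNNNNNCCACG or its reverse complement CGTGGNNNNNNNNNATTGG, and all forms were read on both strands. The 250 bases before the start are shown for 4 stress-inducible members and 3 ER members, each 5′ to 3′ on the strand of its gene, with the 2-unit heat shock element in capitals in the first 4 and the ER stress element in capitals in the last 3.
Hspa1a: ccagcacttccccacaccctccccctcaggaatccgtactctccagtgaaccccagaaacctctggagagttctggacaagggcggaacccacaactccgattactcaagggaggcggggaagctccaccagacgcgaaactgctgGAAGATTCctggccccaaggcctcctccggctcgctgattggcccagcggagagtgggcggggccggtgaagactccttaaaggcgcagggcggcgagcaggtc
Hspa1b: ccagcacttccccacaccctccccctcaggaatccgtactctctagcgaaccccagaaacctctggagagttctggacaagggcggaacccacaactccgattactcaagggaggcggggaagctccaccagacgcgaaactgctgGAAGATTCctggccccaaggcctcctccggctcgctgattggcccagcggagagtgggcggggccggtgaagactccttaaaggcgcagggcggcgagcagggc
Hspb1: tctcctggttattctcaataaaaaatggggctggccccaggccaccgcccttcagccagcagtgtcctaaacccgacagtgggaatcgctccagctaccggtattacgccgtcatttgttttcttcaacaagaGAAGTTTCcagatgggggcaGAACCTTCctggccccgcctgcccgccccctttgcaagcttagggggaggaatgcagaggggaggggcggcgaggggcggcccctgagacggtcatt
Hsph1: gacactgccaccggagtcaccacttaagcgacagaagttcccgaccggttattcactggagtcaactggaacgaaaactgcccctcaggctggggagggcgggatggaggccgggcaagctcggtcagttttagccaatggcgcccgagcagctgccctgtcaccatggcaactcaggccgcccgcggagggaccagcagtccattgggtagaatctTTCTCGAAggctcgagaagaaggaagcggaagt
Hspa5: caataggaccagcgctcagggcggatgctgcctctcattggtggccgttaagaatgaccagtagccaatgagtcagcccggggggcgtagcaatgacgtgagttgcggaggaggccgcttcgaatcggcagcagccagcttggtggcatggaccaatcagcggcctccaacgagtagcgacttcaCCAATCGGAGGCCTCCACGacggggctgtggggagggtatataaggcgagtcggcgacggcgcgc
Hsp90b1: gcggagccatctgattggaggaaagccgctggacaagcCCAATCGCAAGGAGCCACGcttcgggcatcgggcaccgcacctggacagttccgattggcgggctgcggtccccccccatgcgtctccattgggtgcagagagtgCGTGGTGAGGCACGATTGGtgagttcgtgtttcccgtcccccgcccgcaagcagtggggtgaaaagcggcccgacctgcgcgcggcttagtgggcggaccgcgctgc
Dnajc3: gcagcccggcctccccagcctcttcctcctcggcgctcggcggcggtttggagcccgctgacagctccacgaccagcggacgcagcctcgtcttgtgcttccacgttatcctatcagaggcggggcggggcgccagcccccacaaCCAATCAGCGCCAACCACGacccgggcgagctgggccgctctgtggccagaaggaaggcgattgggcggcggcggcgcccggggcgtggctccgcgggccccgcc

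These stretches lie at chr17:34972157-34972406 for Hspa1a and at chr17:34959239-34959488 for Hspa1b, both on the minus strand. The stretches of the 2 genes are identical at 247 of 250 bases (98.8%), and each holds 1 element from 104 to 97 bases before the start. The other stretches lie at chr5:135887669-135887918 on the plus strand for Hspb1, which holds 2 elements, and at chr5:149636337-149636586 on the minus strand for Hsph1, which holds 1 element. The ER genes lie at chr2:34771840-34772089 (plus strand) for Hspa5, at chr10:86705445-86705694 (minus strand) for Hsp90b1 and at chr14:118937682-118937931 (plus strand) for Dnajc3. Hsp90b1 holds 2 ER stress elements in its stretch and Hspa5 and Dnajc3 hold 1 each.

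Over the whole windows of 300 bases, 6 of the 7 stress-inducible members with a promoter held the 2-unit heat shock element, compared with 17% of the 27025 genes with a promoter. The 3-unit form was found in 4 of the 61 members, compared with 0.662% of all genes, and these were Hsph1 among the stress-inducible members, Dnajb6 among the constitutive members, and Hspd1 and Hspe1, which lie head to head on chromosome 1 and share the matches. The ER stress element was found in 3 of the 61 members, Hspa5, Hsp90b1 and Dnajc3, compared with 0.137% of all genes. All 3 belong to the 6 ER unfolded protein response members with a promoter. A match is a run of letters in this window and not a measured binding site.

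The arrays themselves bear on each result that follows. IEL replicate 1 and SPL replicate 2 shared slide 1, and IEL replicate 2 and SPL replicate 1 shared slide 2. Between 63.6% and 69.6% of the probes were well above background per array. Over the tested probes, the array labelled IEL replicate 2 correlated more closely with SPL replicate 1 (Pearson r = 0.992) than with IEL replicate 1 (r = 0.946), and SPL replicate 2 correlated with SPL replicate 1 at r = 0.986. All 9 T cell markers were well above background in at least 1 group, and their summed intensity, in multiples of the 75th percentile of each array, was 743 to 819 in the IELs and 830 to 842 in the SPLs. All 13 of the epithelial markers tested (of 14 listed) were higher in both IELs than in both SPLs, with summed intensities of 53.1 and 10.1 in IEL replicates 1 and 2 and of 5.15 and 2.51 in SPL replicates 1 and 2. The Paneth cell list (5 of 7 tested) summed to 217 in IEL replicate 1 and to between 5.16 and 7.74 on the other 3 arrays. Most of the sum on IEL replicate 1 was Defa6, at 7.48 on the log2 scale. On SPL replicates 1 and 2 it was mostly Lyz1, at 2.30 and 2.35. By gene, 4 of the 5 were higher in both IELs than in both SPLs, compared with 24.4% of all tested probes, and the groups overlapped for Lyz1. In contrast, the B cell list (5 of 6 tested) summed to 6.37 in IEL replicate 1 and to between 82.9 and 104 on the other arrays. The erythroid list (4 of 4 tested) summed to 1.06 compared with 74.3 to 115, and the myeloid list (9 of 10 tested) to 47.8 compared with 67.8 to 87.8. Most of the myeloid sum on IEL replicate 1 was Lyz2, at 5.56 on the log2 scale there and at 4.81 to 5.21 on the other arrays. Of the 9 myeloid markers, 8 were lowest on IEL replicate 1, compared with 38.8% of all tested probes. Thus, IEL replicate 2 stood with the SPLs in its B cell, erythroid and myeloid markers. Not every marker of these lists was well above background on every array. Ms4a1, S100a8 and Alas2 were so on only 1 of the 2 IEL arrays, with 4.4, 3.66 and 7.33 intensity units on IEL replicate 1. The part of other cells in the chaperone values was not tested. In RNA of whole sorted samples, a smaller number of cells of a type and less RNA per cell cannot be told apart.

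Values below are log2 processed intensities minus the 75th percentile of the array, so that 0 marks a signal at that percentile. A gene with several probes is given by its tested probe with the highest mean signal, and values are compared across arrays for the same probe and never between genes. A probe entered the test if both arrays of IELs, or both arrays of SPLs, were well above background. This held for 128 of the 143 probes and for 69 of the 75 genes. The 6 genes that did not pass were Dnajb7, Dnajc22, Hspa12a, Hspb2, Hspb3 and Hspb8. Of the 69 genes tested, 68 were well above background on all 4 arrays, and the exception was Dnajb3.

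No member differed between CD8αβ+ IELs and CD8αβ+ SPLs past the threshold. With limma over 27937 probes, 0 of 69 members had an adjusted p below 0.05, and the same held for 0% of all tested probes, with a smallest adjusted p of 0.634. At an unadjusted p below 0.05 for the probes shown, 1 member (Dnajc6) was higher in IELs, compared with 4.64% of all tested probes. At that level, 0 members were lower, compared with 1.1%. Other tested probes of Dnajc10, Dnajc27 and Dnajc28 were lower in IELs at this limma level. In the opposite direction, another probe of Dnajc18 had a log2 fold change of 1.16, with only 1 IEL value. With 2 arrays against 2, an exact two-sided permutation test of a single gene cannot go below p = 0.33. Both IELs lay above both SPLs for 17 members, compared with 24.4% of all tested probes, and below them for 15 members, compared with 24.6%. The groups overlapped for the other 37. The median log2 difference between IELs and SPLs was 0.01 over the 69 members, and 35 were positive and 34 negative.

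**Figure D1:**
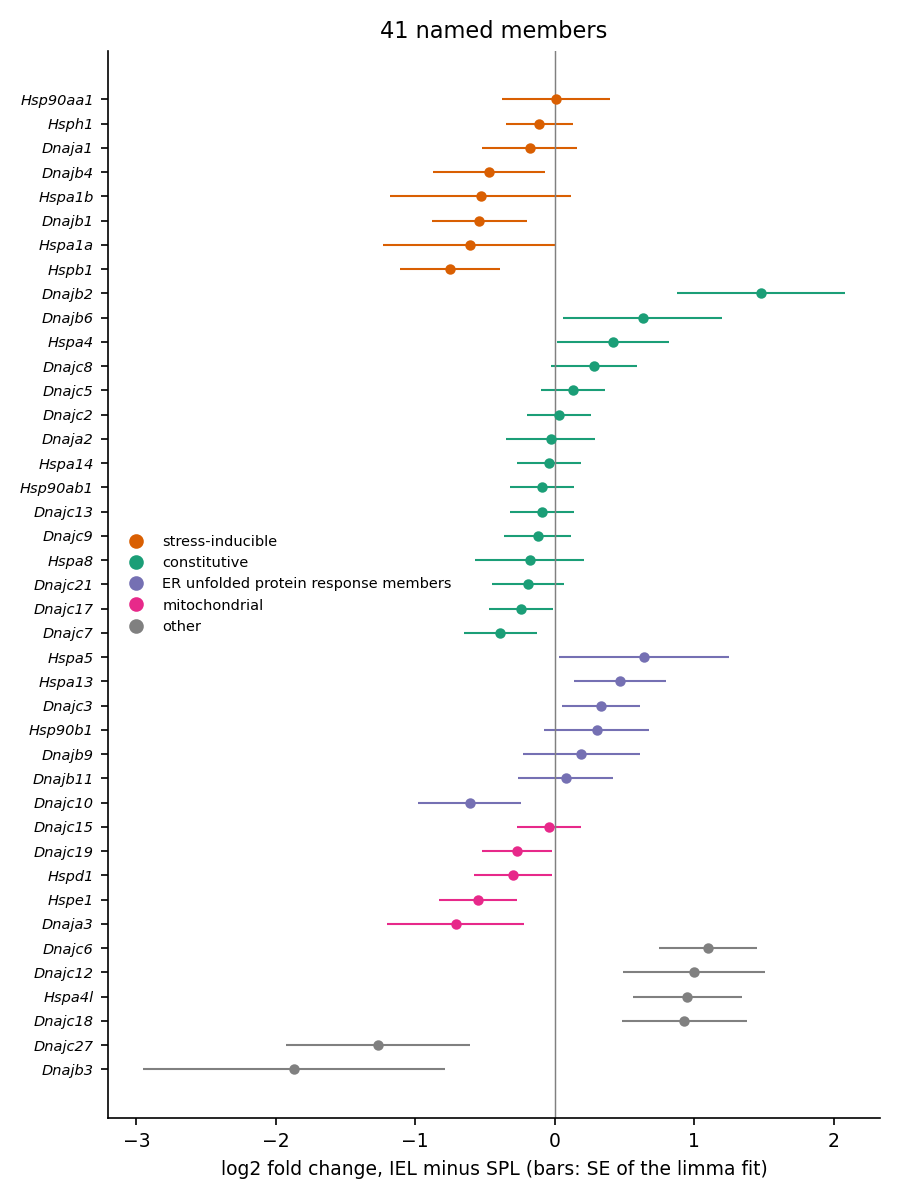
Log2 fold change between IELs and SPLs (x axis, IEL minus SPL) for the 41 named members (y axis), colored by list; points are the limma estimates over 2 arrays per group and bars are standard errors. The stress-inducible members lie between -0.75 and 0.01, and the constitutive members lie between -0.39 and 0.63 except for Dnajb2 at 1.48.

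The stress-inducible members were compared with the constitutive members of the same families. The lists are not cleanly split by heat shock elements. Dnajb6 of the constitutive list held the 3-unit form, and neither form was found for Dnajb1 of the stress-inducible list. Both lists were chosen with earlier results of these data known, so the counts that follow are a description and no test. All 8 stress-inducible members had their highest signal on 1 array, SPL replicate 2, whereas 4 of the 15 constitutive members did. Of all tested probes, 39.5%, 14.4%, 17.8% and 28.4% were highest on IEL replicates 1 and 2 and SPL replicates 1 and 2, respectively. The count of 8 held under each scaling of the arrays that was tried except for a background correction by normexp with an offset of 50 fitted on all spots, under which it was 6. Counted by probe, 14 of the 15 tested probes of these genes were highest on SPL replicate 2, and the other was a probe of Dnajb4.

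Hspa1a encodes the cytosolic HSP70 that is induced most sharply by heat. The probe shown for it lies at chr17:35106766-35106825 of mm9, the build of the array annotation. Its level was 4.28 in IEL replicate 1, 4.19 in IEL replicate 2, 3.99 in SPL replicate 1 and 5.69 in SPL replicate 2. Thus, the 2 SPLs differed by 1.69 on the log2 scale (3.23-fold), with both IELs between them. For Hspa1b, its near-identical neighbor on chromosome 17, the levels were 1.62 and 1.08 in the IELs and 1.02 and 2.73 in the SPLs. Here the SPLs differed by 1.71 on the log2 scale (3.26-fold). On the other tested probe of Hspa1b, which was dimmer, the levels were -0.42 and -0.95 in the IELs and -1.05 and -0.21 in the SPLs, with a log2 fold change of -0.06. Both probes of Hspa1b match transcripts of both genes in RefSeq, so that the values given for Hspa1b may include Hspa1a and are uncertain. The promoters printed above are nearly the same as well. The log2 fold change from SPLs to IELs was -0.61 for Hspa1a (SE = 0.62, limma adjusted p = 0.705) and -0.53 for Hspa1b (SE = 0.65, limma adjusted p = 0.749), and without SPL replicate 2 these values were 0.24 and 0.33.

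The 3 J-domain proteins among the stress-inducible members also peaked on SPL replicate 2. Dnajb1, the heat-induced HSP40, had levels of 5.60 and 6.14 in the IELs and 6.15 and 6.66 in the SPLs. Dnaja1, a farnesylated J-domain protein, had levels of 5.12 and 4.83 in the IELs and 4.82 and 5.50 in the SPLs. For Dnajb4, the levels were 1.97 and 1.76 in the IELs and 1.86 and 2.80 in the SPLs. Both IELs were below both SPLs for Dnajb1, although IEL replicate 2 and SPL replicate 1 differed by only 0.01, and the groups overlapped for Dnaja1 and Dnajb4. On the other 2 tested probes of Dnaja1, both IELs were below both SPLs, with log2 fold changes of -0.54 and -0.71. The log2 fold changes were -0.54 (SE = 0.34) for Dnajb1, -0.18 (SE = 0.34) for Dnaja1 and -0.47 (SE = 0.40) for Dnajb4.

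Hspb1 encodes a small heat shock protein that holds unfolded clients without ATP. Its levels were -2.88 and -2.56 in the IELs and -2.35 and -1.58 in the SPLs, so that both IELs were below both SPLs, and its log2 fold change of -0.75 (SE = 0.36, limma adjusted p = 0.634) was the lowest of the 8. Hsp90aa1, the inducible form of cytosolic HSP90, had levels of 6.30 and 5.73 in the IELs and 5.62 and 6.38 in the SPLs. Hsph1, an HSP110 that exchanges the nucleotide of HSP70, had levels of 5.03 and 5.13 in the IELs and 5.05 and 5.33 in the SPLs. The IELs and SPLs overlapped for both, with log2 fold changes of 0.01 (SE = 0.39) and -0.11 (SE = 0.24).

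As a group, the median log2 fold change was -0.50 for the 8 stress-inducible members (range, -0.75 to 0.01), compared with -0.04 (range, -0.39 to 1.48) for the 15 constitutive members and -0.00 for all tested probes. The difference between the medians of the lists was -0.46. This value was carried by SPL replicate 2. Within slide 1, which holds SPL replicate 2, the median of the stress-inducible members was -0.95 and that of the constitutive members was 0.01. Within slide 2, the medians were 0.04 and -0.09, and the difference turned from -0.96 to 0.13. Without SPL replicate 2, the median of the stress-inducible members was 0.09 and the difference was 0.10. Without IEL replicate 2, the array that resembled the SPLs, they were -0.31 and -0.42. Relative to the mean of each gene over the 4 arrays, the stress-inducible median minus the constitutive median was -0.21 and -0.15 in IEL replicates 1 and 2, -0.20 in SPL replicate 1 and 0.61 in SPL replicate 2. SPL replicate 2 also differed from the other arrays in its negative control spots, which averaged 17.2 intensity units compared with -2.05 to -1.67, and the part of this in the chaperone values was not tested. In the deposited log2 table, whose extremes are equal on every array, the 8 genes were highest on SPL replicate 2 as well.

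**Figure D2:**
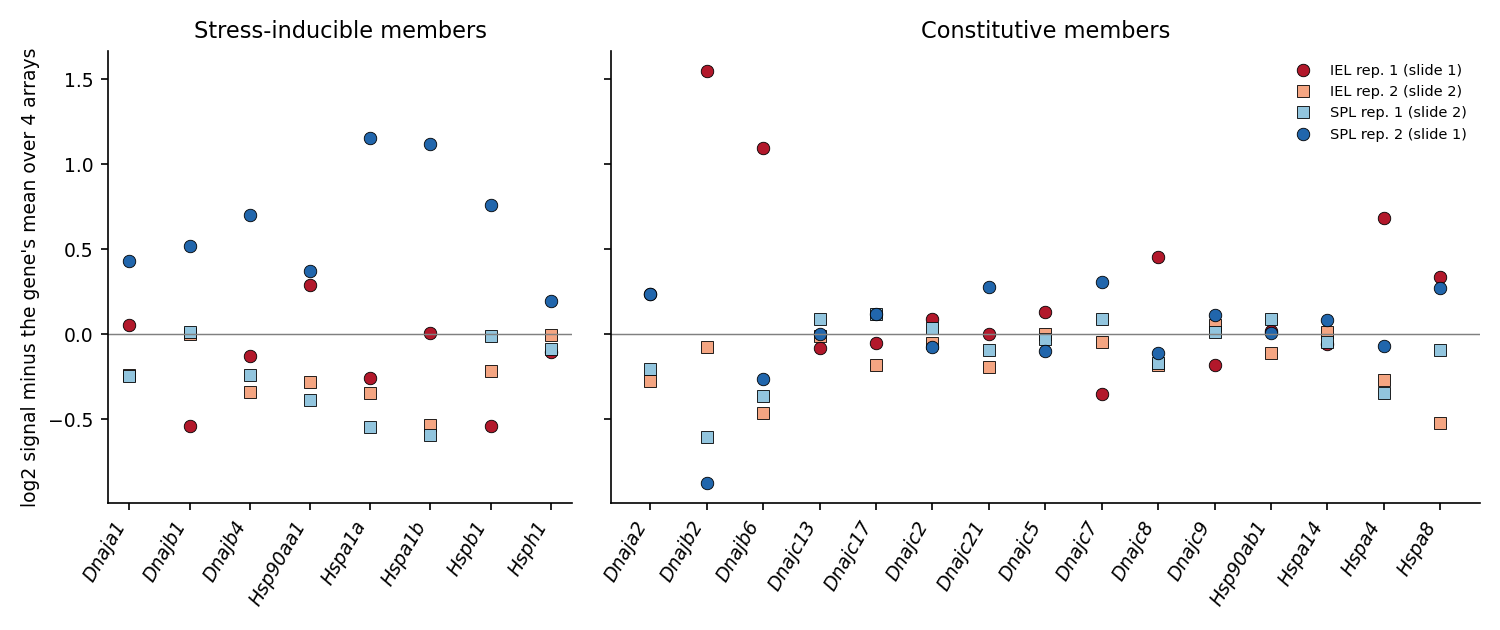
Log2 signal minus the mean of the gene over the 4 arrays (y axis) for each of the 8 stress-inducible (left) and 15 constitutive members (right); each point is 1 array, with circles for slide 1 and squares for slide 2. SPL replicate 2 is the highest point for all 8 stress-inducible members, and IEL replicate 1 stands apart for Dnajb2, Dnajb6 and Hspa4.

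Most of the constitutive members had log2 fold changes close to 0. Hsp90ab1, the constant form of cytosolic HSP90, had levels of 6.13 and 6.0 in the IELs and 6.20 and 6.12 in the SPLs. Hspa14, an HSP70 of the ribosome, had levels of 3.78 and 3.85 in the IELs and 3.79 and 3.92 in the SPLs, and its partner Dnajc2 had levels of 2.42 and 2.28 in the IELs and 2.37 and 2.26 in the SPLs. The IELs and SPLs overlapped for all 3 genes. Log2 fold changes lay between -0.24 and 0.13 for these genes and for Dnaja2 (cytosolic HSP70 partner), Dnajc5 (the cysteine string protein of secretory vesicles), Dnajc9 (a histone chaperone), Dnajc13 (endosomal sorting), Dnajc17 (nuclear) and Dnajc21 (ribosome assembly). Dnajc7, which has TPR repeats that bind HSP70 and HSP90, was lower in both IELs (0.57 and 0.88) than in both SPLs (1.01 and 1.23), with a log2 fold change of -0.39 (SE = 0.26), and Dnajc8, a nuclear protein of the splicing machinery, had a log2 fold change of 0.28 (SE = 0.31).

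Hspa8, the constitutive HSP70, did not follow cell type. Its levels were 7.11 in IEL replicate 1 and 7.04 in SPL replicate 2, both of slide 1, compared with 6.25 in IEL replicate 2 and 6.68 in SPL replicate 1, both of slide 2. Its log2 fold change was -0.18 (SE = 0.39). The same split by slide was shown by 22 of the 69 members with both slide 1 arrays above both slide 2 arrays, compared with 20.7% of all tested probes, and by 5 members in the opposite direction, compared with 16.3%. The 22 include 5 of the 8 stress-inducible members (Dnaja1, Dnajb4, Hsp90aa1, Hspa1a and Hspa1b), 6 of the 15 constitutive members (Dnaja2, Dnajb6, Dnajc8, Dnajc21, Hspa4 and Hspa8) and 4 of the 7 ER unfolded protein response members (Dnajb9, Dnajb11, Hsp90b1 and Hspa5). Hence, for these genes the mean of each group holds 1 high and 1 low array.

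The constitutive members with the largest values were Dnajb2, Dnajb6 and Hspa4, and in each of them IEL replicate 1 stood apart. Dnajb2, a J-domain protein that carries clients to the proteasome, had levels of 2.88 and 1.26 in the IELs and 0.73 and 0.46 in the SPLs. Both IELs were above both SPLs, but IEL replicate 1 exceeded IEL replicate 2 by 1.62 on the log2 scale (3.06-fold). Dnajb6, which keeps aggregation-prone proteins soluble, had levels of 3.75 and 2.19 in the IELs and 2.29 and 2.39 in the SPLs. Hspa4, an HSP110, had levels of 3.57 and 2.62 in the IELs and 2.54 and 2.82 in the SPLs. Other tested probes of Hspa4 gave differences of both signs. Log2 fold changes were 1.48 (SE = 0.60, limma adjusted p = 0.634) for Dnajb2, 0.63 (SE = 0.57) for Dnajb6 and 0.42 (SE = 0.40) for Hspa4.

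The ER chaperones also peaked on a single array, but on IEL replicate 1 and not on the array of the stress-inducible members. Of the 7 members of the ER unfolded protein response, 6 were highest there, compared with 39.5% of all tested probes, a count that held under each scaling tried, and so were 13 of their 19 tested probes. Hspa5 encodes BiP, the HSP70 of the ER lumen, and its levels were 7.29 and 5.65 in the IELs and 5.62 and 6.03 in the SPLs. The IELs differed by 1.63 on the log2 scale (3.1-fold), and IEL replicate 2 lay within the range of the SPLs. Hsp90b1, the HSP90 of the ER, had levels of 5.63 and 4.73 in the IELs and 4.84 and 4.92 in the SPLs. Dnajc3, a luminal J-domain protein also known as an inhibitor of the eIF2α kinases, had levels of 4.06 and 3.55 in the IELs and 3.46 and 3.49 in the SPLs. These are the 3 genes whose promoters, printed above, hold the ER stress element. For the probes shown, both IELs were above both SPLs for Dnajc3 and not for Hspa5 or Hsp90b1. On the other tested probe of Hsp90b1, with levels of 5.52 and 4.84 in the IELs and 4.66 and 4.57 in the SPLs, both IELs were above both SPLs.

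Dnajb9 and Dnajb11 are J-domain co-chaperones of BiP. Dnajb9 had levels of 3.90 and 2.95 in the IELs and 3.0 and 3.47 in the SPLs. Dnajb11 had levels of 3.55 and 2.84 in the IELs and 2.99 and 3.25 in the SPLs. Hspa13, an HSP70-like protein of microsomes, had levels of 0.69 and 0.02 in the IELs and -0.22 and -0.01 in the SPLs. Dnajc10, a disulfide reductase with a J domain, had levels of -0.21 and 0.65 in the IELs and 0.83 and 0.82 in the SPLs. It was the one member of the 7 for which IEL replicate 1 was not the highest array. On the other tested probes of Dnajc10, log2 fold changes ranged from -2.11 to -0.30. The probe at -2.11 had levels of -3.28 and -4.75 in the IELs and -1.92 and -1.90 in the SPLs. The median log2 fold change of the 7 was 0.30 (range, -0.61 to 0.64), with 0.57 within slide 1 and -0.05 within slide 2. None was called by limma, and the log2 fold changes were 0.64 (SE = 0.61) for Hspa5, 0.30 (SE = 0.38) for Hsp90b1, 0.33 (SE = 0.28) for Dnajc3, 0.47 (SE = 0.33) for Hspa13, 0.19 (SE = 0.42) for Dnajb9, 0.08 (SE = 0.34) for Dnajb11 and -0.61 (SE = 0.37) for Dnajc10. Without IEL replicate 1, the log2 fold changes of the probes shown for Hspa5, Hsp90b1, Dnajb9 and Dnajb11 were negative, at -0.17, -0.15, -0.29 and -0.28, whereas on the other probe of Hsp90b1 IEL replicate 2 was above both SPLs. The 5 members of a further list of ER proteins (Dnajb12, Dnajb14, Dnajc1, Dnajc14 and Dnajc25) had log2 fold changes from -0.27 to 0.47.

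Other genes of the ER unfolded protein response, without an Hsp or Dnaj symbol, were compared to see whether the array was high beyond the members. Of 18 such genes, all tested, 0 were called, 16 were highest on IEL replicate 1, compared with 39.5% of all tested probes, and both IELs were above both SPLs for 12, compared with 24.4%. The median log2 fold change was 0.52 (range, -0.29 to 1.83), with 0.91 within slide 1 and 0.20 within slide 2. Ddit3, which encodes the stress factor CHOP, had levels of 4.44 and 2.13 in the IELs and 1.43 and 1.49 in the SPLs. Herpud1, a component of ER-associated degradation, had levels of 5.46 and 3.56 in the IELs and 3.27 and 3.42 in the SPLs. In both genes, IEL replicate 1 was above the other 3 arrays by more than IEL replicate 2 was above the SPLs. The epithelial and Paneth cell markers given above were also highest on IEL replicate 1, as were 10 of 14 immediate-early genes (39.5% of all tested probes), whose median log2 fold change was 0.28, and their part in these values was not tested.

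**Figure D3:**
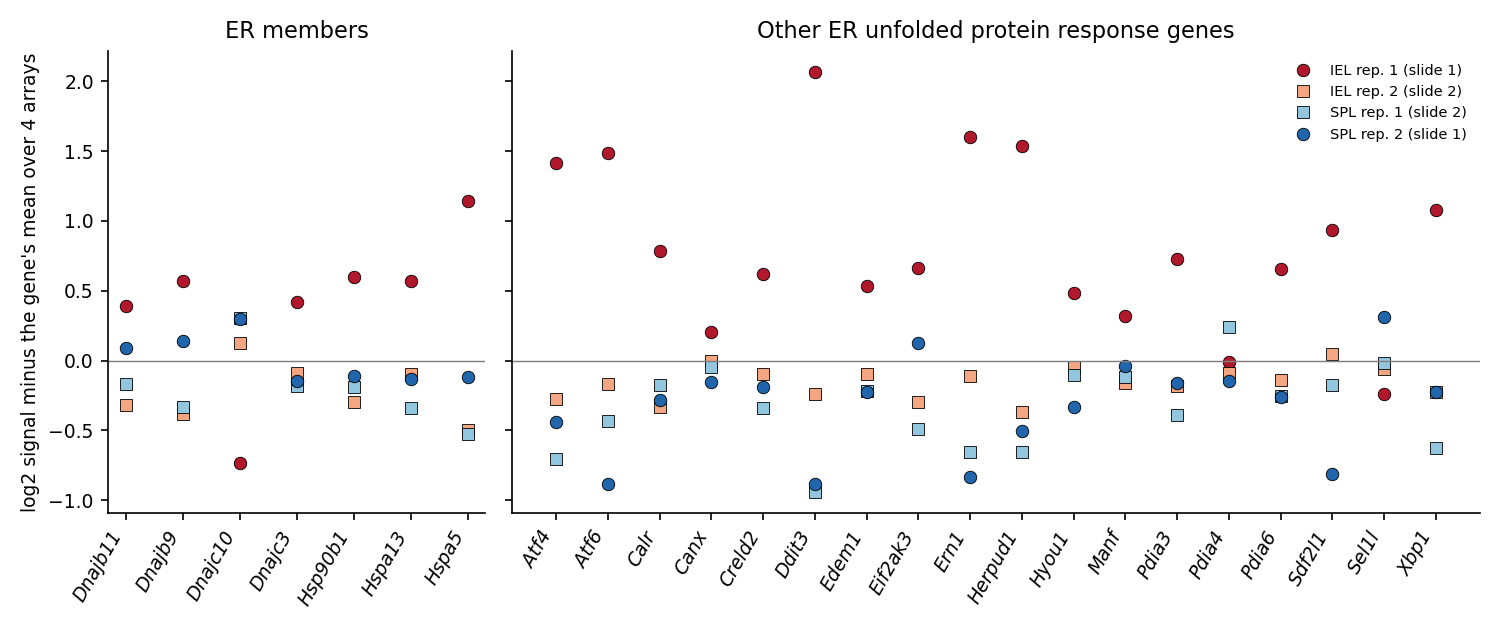
Log2 signal minus the mean of the gene over the 4 arrays (y axis) for the 7 ER unfolded protein response members (left) and 18 other genes of that response (right); each point is 1 array, with circles for slide 1 and squares for slide 2. IEL replicate 1 is the highest point for 6 of the 7 members and for 16 of the 18 other genes, and the lowest for Dnajc10.

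The mitochondrial members leaned the other way on the same array. Of the 10 genes, 7 were lowest on IEL replicate 1, compared with 38.8% of all tested probes. In addition, 5 of the 10, among them Hspd1 and Hspe1, were highest on SPL replicate 2, compared with 28.4%. Hspe1, the HSP10 lid of the mitochondrial chaperonin, had levels of 4.23 and 4.46 in the IELs and 4.68 and 5.11 in the SPLs. Hspd1, the HSP60 of the same chaperonin, had levels of 4.70 and 5.07 in the IELs and 5.04 and 5.35 in the SPLs. Hspe1 had both IELs below both SPLs, whereas the groups overlapped for Hspd1. Dnaja3, a J-domain partner of mitochondrial HSP70, had levels of -0.29 and 0.99 in the IELs and 1.16 and 0.96 in the SPLs. Dnajc19, of the import motor, was lower in both IELs (3.58 and 3.87) than in both SPLs (3.92 and 4.07), and Dnajc15, a protein of the inner membrane, ranged only from 5.92 to 6.09. Log2 fold changes were -0.55 (SE = 0.28) for Hspe1, -0.30 (SE = 0.28) for Hspd1, -0.71 (SE = 0.49) for Dnaja3, -0.27 (SE = 0.25) for Dnajc19 and -0.04 (SE = 0.23) for Dnajc15. Hspa9, Dnajc4, Dnajc11, Dnajc28 and Dnajc30 had log2 fold changes from -0.47 to 0.16. The median over the 10 was -0.29 (range, -0.71 to 0.16), with -0.54 within slide 1 and -0.09 within slide 2.

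Of the 16 members listed as tissue-restricted, among them genes of testis, muscle, heart and brain, 12 were tested. All 12 had signals below the 75th percentile of each array. Of these, 11 had a positive log2 fold change, with a median of 0.40 (range, -1.87 to 1.10). The share of positive values among probes of similarly low signal was not counted. The median of all tested probes was -0.00, and it was 0.15 with no filter, when dimmer probes were included. Dnajc6, the auxilin that uncoats clathrin vesicles, had levels of -2.71 and -3.45 in the IELs and -4.31 and -4.06 in the SPLs. Both IELs were above both SPLs, with a log2 fold change of 1.10 (SE = 0.35, limma unadjusted p = 0.0299, adjusted p = 0.634). Dnajc6 was the only one of the 69 with an unadjusted p below 0.05 on the probe shown. Its difference was 1.34 within slide 1 and 0.86 within slide 2. Under normexp with an offset of 50, in which dim signals are compressed, its value turned to -0.66. Dnajb3 had levels of -7.58 and -4.47 in the IELs and -4.12 and -4.20 in the SPLs, and was not well above background on 1 of the IELs, so that its log2 fold change of -1.87 (SE = 1.08) rests on a signal near background and turned to 0.06 under normexp fitted without spots far below their background. The remaining members of this list, among them Hspa1l, Hspa2, Hspb6, Hspb7 and Dnajb13, had log2 fold changes between 0.07 and 0.84.

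The other members with the largest values also turned on IEL replicate 1. Dnajc12, a partner of the aromatic amino acid hydroxylases, had levels of 0.90 and -0.47 in the IELs and -0.83 and -0.73 in the SPLs. Hspa4l, an HSP110, had levels of 1.31 and 0.37 in the IELs and -0.15 and -0.07 in the SPLs. Dnajc18, a further J-domain protein, had levels of 2.22 and 1.08 in the IELs and 0.77 and 0.67 in the SPLs. In all 3 genes, both IELs were above both SPLs, with IEL replicate 2 closer to the SPLs than to IEL replicate 1. Dnajc27, a small GTPase with a J domain, had levels of -2.43 and -0.60 in the IELs and -0.34 and -0.15 in the SPLs. Log2 fold changes were 1.00 (SE = 0.51) for Dnajc12, 0.95 (SE = 0.39) for Hspa4l, 0.93 (SE = 0.45) for Dnajc18 and -1.27 (SE = 0.66) for Dnajc27. Of the members in no list, Dnaja4, Dnajb5, Dnajc16, Dnajc24 and Hspbp1 had log2 fold changes from -0.56 to 0.15, and the lowest was that of Dnajb5, whose probes differed in sign. The 3 genes matched by name only had log2 fold changes from -0.42 to 0.15.

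The 2 slides gave different pictures of the same comparison. Within slide 1, 10 members were at least 2-fold higher in IELs, compared with 11.8% of all tested probes, and 8 were at least 2-fold lower, compared with 13.7%. Within slide 2, by the probes shown, 0 members were at least 2-fold higher, compared with 2.47%, and 0 were at least 2-fold lower, compared with 0.73%. For the probes shown, differences of single members ranged from -3.39 to 2.42 within slide 1 and from -0.51 to 0.86 within slide 2. Another tested probe of Dnajc10 differed by -1.38 within slide 1 and by -2.83 within slide 2. With 1 array per group, a slide gives no test. Leaving out IEL replicate 2, which resembled the SPLs, limma called 9 members higher in IELs, compared with 8.56% of all tested probes, and 4 lower, compared with 11%. The 9 were Dnajb2, Dnajb6, Dnajc6, Dnajc12, Dnajc18, Hspa2, Hspa4l, Hspa5 and Hspb7, with log2 differences from 1.28 to 2.28, and the 4 were Dnaja3, Dnajb3, Dnajc10 and Dnajc27, with log2 differences from -3.42 to -1.04. These calls compare 1 IEL array with 2 SPL arrays and assume that the single array varies like the SPLs. None of the 8 stress-inducible members was among them.

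**Figure D4:**
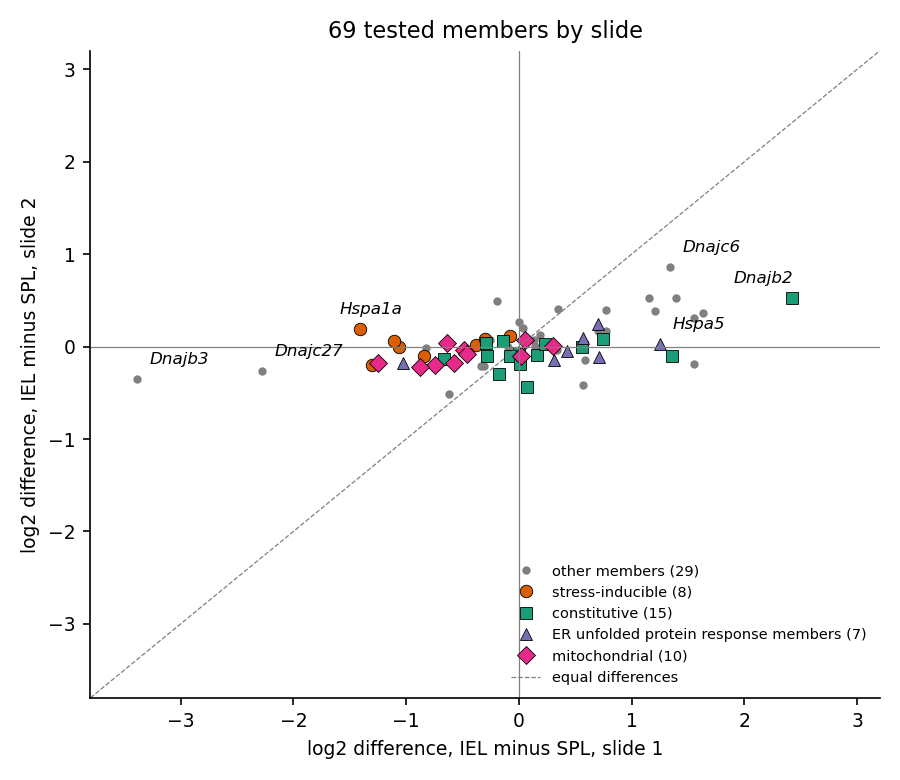
Log2 difference between the IEL and SPL arrays within slide 1 (x axis) against that within slide 2 (y axis) for the 69 tested members, each point 1 gene with color and shape for its list; the dashed line marks equal differences. The points spread from -3.39 to 2.42 along x but only from -0.51 to 0.86 along y, and the stress-inducible members lie left of 0 on x and close to 0 on y.

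Co-chaperones and heat shock factors outside the Hsp and DnaJ names were taken as a further reference. Of 33 such genes, 32 were tested, 0 were called, and the median log2 fold change was -0.08 (range, -0.75 to 3.11). Hsf1, the main heat shock factor, had levels of 4.21 and 4.21 in the IELs and 4.27 and 3.92 in the SPLs. Bag3, a heat-induced partner of HSP70, had levels of 1.99 and 1.15 in the IELs and 1.08 and 1.70 in the SPLs, and Chordc1, a heat-induced partner of HSP90, had levels of 2.39 and 2.99 in the IELs and 3.09 and 2.99 in the SPLs. Neither Bag3 nor Chordc1 was highest on SPL replicate 2, whereas 13 of the 32 were, compared with 28.4% of all tested probes. Among the 13 was Ahsa1, an activator of the HSP90 ATPase, with levels of 5.0 and 5.49 in the IELs and 5.56 and 5.74 in the SPLs. The value of 3.11 (SE = 0.76, limma unadjusted p = 0.0124, adjusted p = 0.634) belonged to Cryab, a small heat shock protein without an Hsp symbol, whose levels were 0.54 and -1.05 in the IELs and -2.65 and -4.08 in the SPLs, so that both IELs were above both SPLs. The difference was 4.62 within slide 1 and 1.60 within slide 2. For Hspb1, the small heat shock protein among the stress-inducible members, the log2 fold change was -0.75. All 8 subunits of the cytosolic chaperonin TRiC in this list (Tcp1, Cct2, Cct3, Cct4, Cct5, Cct6a, Cct7 and Cct8), a subset chosen after the values were seen, were lower in both IELs than in both SPLs, compared with 24.6% of all tested probes, and 7 of them were highest on SPL replicate 2, compared with 28.4%. Their log2 fold changes ranged from -0.75 for Cct6a to -0.10 for Cct4 and Cct7.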

How the data were processed

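Total RNA of the sorted CD8αβ+ cells was labelled with 1 dye and hybridized to 4 Agilent arrays, with 1 sample per array. Per the file headers, Feature Extraction 10.7.3.1 wrote the deposited intensity of each spot, corrected for background within the array and not normalized between arrays (the submitters' processing notes name version 10.7.1.1). A second deposited file holds log2 values of the authors whose extremes (0.53 and 18.84) are the same for all arrays, as after quantile normalization, although no source states how it was scaled. Its centring is given by medians of 5.57 to 5.59. The array design carries mm9 positions. PrimeView chips and MeV 4.9 are named in the methods of the study, as is Student's unpaired test.

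The log2 processed intensity was scaled to the 75th percentile of 43379 non-control spots (in the IELs 312 and 435, in the SPLs 479 and 605 intensity units). Between 98 and 179 spots per array with an outlier mark were dropped, no spot was saturated, and the mean over the spots of each of 41174 probes was used. The 27937 probes well above background on both arrays of a group were compared by limma 3.58.1 in R 4.3.3 without a block (2 residual degrees of freedom, two-sided, Benjamini-Hochberg, threshold 0.05). The brightest tested probe stood for its gene. Of 37 members with several tested probes, 6 had probes that differed in sign (Dnajb14, Dnajb5, Dnajc16, Dnajc2, Hspa13 and Hspa4). The members and lists were chosen with earlier results of these data known. The rule for named genes took every tested stress-inducible and constitutive member, the brightest members of the ER unfolded protein response and mitochondrial lists (all 7 and 4, respectively), the 5 largest rises and the 5 largest falls. Other genes given with values were chosen after those were seen. By accession, 124 of the 143 probes matched RefSeq. On simulated data for this comparison (27912 probes), limma recovered 0 of 200 probes shifted by 3 on the log2 scale at the spread of these arrays, and 196 at 0.25 of that spread. No source says that the samples of a group came from separate experiments, so that p-values measure only the spread between these samples, and precision is limited by having only 2 arrays per group. The deviations of same-numbered arrays from the means of their groups had a correlation of -0.025. With 2 arrays per group, this value cannot show whether the numbers paired the samples. Alternatives covered scaling, background correction, filters, blocks, probes, slides and arrays left out.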

Additional observations from a re-analysis of the deposited data

How the results depend on the processing

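No member was called under any alternative with a test except without IEL replicate 2, where 13 were. The paired analysis with the replicate number as a block called 0 members and changed no call, and neither did the slide as a block or the unpaired test that the methods name. Over the settings that leave out 1 array, the stress-inducible median ranged from -0.86 to 0.09 and the constitutive median from -0.06 to 0.11. The difference between the medians ranged from -0.81 to 0.10. In these settings, every remaining IEL was above every remaining SPL for 18 to 35 members, and below for 21 to 29. The share of all tested probes was not counted there. Fewer arrays separate more easily, so these counts cannot be set against those over all arrays. Within slide 1 the stress-inducible median was -0.95 and the difference -0.96, and within slide 2 they were 0.04 and 0.13. With median scaling, 9 members were higher in both IELs and 21 were lower. The shares of all tested probes were not counted under that scaling. With normexp (offset 50), 7 were lower in both IELs, again without a counted share of all tested probes. The constitutive median was then 0.35, while the median of all tested probes shifted to -0.38. With normexp fitted without spots far below their background, or with no filter, the median of all probes shifted to 0.15. The stress-inducible median was negative under every scaling, at -0.08 with normexp.

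Of the 41 genes followed, 16 kept their sign under all 20 alternatives. Leaving out 1 array turned the sign of 18, with ranges of -0.53 to 0.16 (Dnaja1), -0.29 to 0.23 (Dnaja2), -0.28 to 0.43 (Dnajb11), -0.94 to 0.00 (Dnajb4), -0.15 to 1.41 (Dnajb6), -0.29 to 0.66 (Dnajb9), -0.13 to 0.04 (Dnajc15), -0.04 to 0.11 (Dnajc2), -0.04 to 0.59 (Dnajc8), -0.37 to 0.39 (Hsp90aa1), -0.15 to 0.75 (Hsp90b1), -0.11 to 0.02 (Hspa14), -1.46 to 0.24 (Hspa1a), -1.38 to 0.33 (Hspa1b), -0.05 to 0.89 (Hspa4), -0.17 to 1.46 (Hspa5), -0.61 to 0.25 (Hspa8) and -0.25 to 0.02 (Hsph1). Within slide 1 the sign turned for Dnaja2 (0.00), Dnajc15 (0.02), Hsp90aa1 (-0.08), Hsp90ab1 (0.01) and Hspa8 (0.07). Within slide 2 it turned for Dnaja1 (0.02), Dnajb11 (-0.15), Dnajb6 (-0.10), Dnajb9 (-0.05), Dnajc2 (-0.09), Dnajc8 (-0.01), Dnajc9 (0.04), Hsp90b1 (-0.11), Hspa14 (0.06), Hspa1a (0.19), Hspa1b (0.06), Hspd1 (0.04) and Hsph1 (0.08). With normexp (offset 50) it turned for Dnaja1 (0.29), Dnaja2 (0.35), Dnajc13 (0.06), Dnajc15 (0.46), Dnajc19 (0.21), Dnajc6 (-0.66), Dnajc9 (0.26), Hsp90ab1 (0.35), Hspa14 (0.39), Hspa8 (0.25), Hspd1 (0.19) and Hsph1 (0.32), and without spots far below background for Dnajb3 (0.06), Dnajc2 (-0.07) and Hsp90aa1 (-0.02). Dnajc2 and Hsp90aa1 also turned with quantile normalization (-0.02 and -0.02), median scaling (-0.02 and -0.04) and the deposited log2 values (-0.02 and -0.03), and Dnajc2 with the mean of its probes (-0.01). The cause of these turns was not tested. Counts of the highest array under other scalings were chosen after seeing the data.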
